A study of Mus musculus with 12 samples.

Results

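The genes described here encode the WNT ligands, the R-spondins, the Frizzled receptors and the secreted antagonists of the SFRP and DKK families with Wif1, as measured in stromal cells grown from mouse small intestine. They were chosen by symbol alone (Wnt, Fzd, Sfrp, Dkk or Rspo followed by a number, plus Frzb and Wif1), whatever their values. Of 23329 listed genes, 43 carried such a symbol, and 41 of these had at least 1 read count in 1 of the 12 libraries. Wnt3a and Dkk4 were at 0 in all libraries. Just above that limit stood Rspo4, with 1 count in all, and Sfrp5, with 2. The members comprised 18 WNT ligands, 4 R-spondins, 10 Frizzled receptors, 5 genes of the SFRP family (Frzb included), 3 of the DKK family, and Wif1.

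WNT ligands are secreted lipid-modified proteins that bind Frizzled receptors together with co-receptors, and either stabilise beta-catenin or act through pathways that do not need it. R-spondins bind LGR receptors and keep Frizzled receptors at the cell surface by removing the ubiquitin ligases that clear them. SFRP proteins, Frzb and Wif1 bind WNT ligands outside the cell, while several DKK proteins act on the co-receptors. In the intestine, mesenchymal cells below the epithelium are a known source of WNT ligands and R-spondins for the stem cells of the crypt.

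The primary cultures were set up from E14.5 embryos or adult mice, all of the C57BL6/J strain, and passaged, so they are expanded cells rather than fresh tissue. Each embryonic culture was made from pooled embryos, and the adult cultures came from separate mice. Villi were scraped from the adult intestines, whereas the embryonic ones were cut into small pieces. Effects of stage and of this preparation cannot be told apart. Cells received E. coli lipopolysaccharide (LPS, O111:B4) for 6 h, at a dose the labels give as 10 µg/µl, or vehicle (PBS) for the same time. Each of the 4 groups (embryonic PBS, embryonic LPS, adult PBS and adult LPS) held 3 libraries, numbered 1 to 3, and LPS and PBS libraries of a stage with the same number are called a culture below because they deviated together from their group means.

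Counts assigned to genes ranged from 18850224 to 32672370 per library. Levels are given in CPM, read counts scaled to library size after TMM normalisation. Marker genes of fibroblasts summed to 11387 to 12475 CPM in culture 2 of each stage and to 20061 to 27014 CPM in the other cultures, and those of smooth muscle and myofibroblasts to 14128 CPM or more. The smooth muscle sum of embryonic culture 2 was 25545 CPM with PBS and 14128 CPM with LPS, against 23866 to 34492 CPM in the other embryonic libraries. Its macrophage sum was 315 CPM with PBS and 655 CPM with LPS, while in the other embryonic cultures this sum was lower with LPS. Summed markers of other cell types differed between cultures. Macrophage markers reached 115 to 1965 CPM in embryonic and 13.8 to 159 CPM in adult libraries, and endothelial markers 16.8 to 37.7 and 16.2 to 1821 CPM. Mesothelial markers reached 143 to 751 CPM in embryonic and 432 to 1427 CPM in adult libraries, and epithelial markers stayed between 12.4 and 65.7 CPM. Most of the epithelial sum was Krt20 and Krt8, while Epcam was at or below 0.488 CPM in every library. In such bulk libraries, fewer cells of a type and less RNA per cell cannot be told apart.

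Levels of different genes were compared per kilobase of exon. Over all libraries, the highest member was the receptor Fzd7, at a mean of 49.7 CPM per kb, followed by the DKK family member Dkk3 at 26.8 CPM per kb. Wnt5a, the ligand best known for beta-catenin-independent signalling, was the highest ligand at 20.8 CPM per kb, Sfrp1 the highest of the SFRP family at 20.1, and Rspo3 the highest R-spondin at 15.6. Wif1 stood at only 0.0361 CPM per kb, with at most 10 counts in any library. The 4 niche markers were thus present in every library, but at very different levels, with Wnt2b, a ligand of gut mesenchyme, at 0.805 CPM per kb. Of the 41 members, 27 had a CPM above 0.5 in all libraries of at least 1 group and were tested. These were 10 ligands, 3 R-spondins, 8 Frizzled receptors, 4 genes of the SFRP family and 2 of the DKK family.

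**Figure D1:**
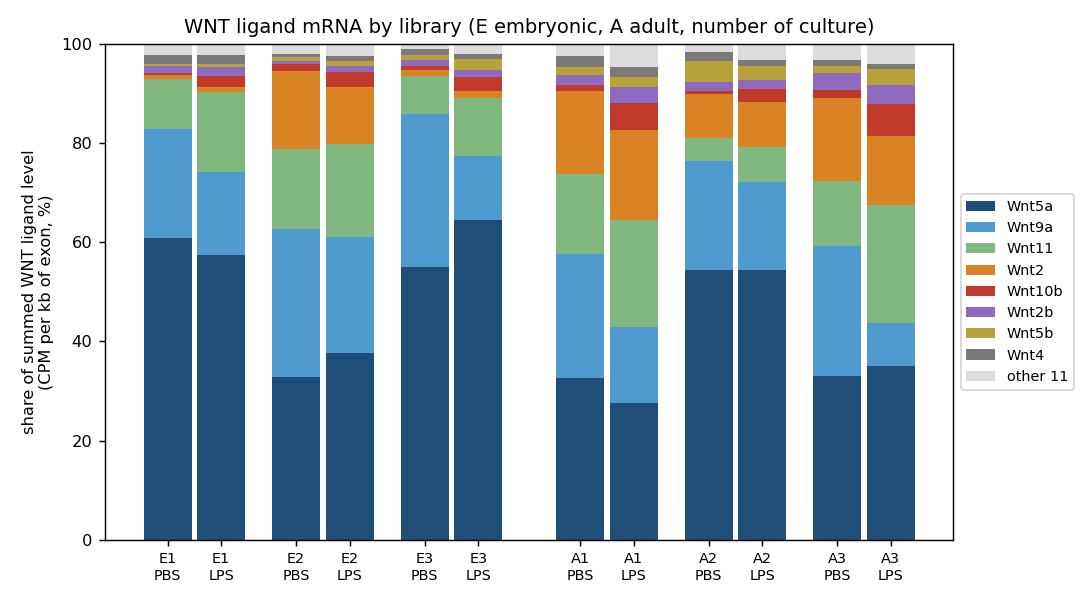
Share of each WNT ligand in the summed ligand level of a library (y axis, percent of CPM per kb of exon), with 1 bar per library (E embryonic, A adult, number of culture). Wnt5a held 32.9% to 64.4% of the sum in embryonic and 27.6% to 54.5% in adult libraries, and with Wnt9a, Wnt11 and Wnt2 filled most of every bar.

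Wnt5a, Wnt9a and Wnt11 held much of the summed ligand level in most libraries, with an order that differed between cultures, as the plot of ligand shares shows. Wnt9a held 12.9% to 30.8% of the summed ligand level in embryonic and 8.7% to 26.1% in adult libraries, and Wnt11 held 7.6% to 18.7% and 4.7% to 23.8%. Wnt2 held 0.8% to 15.6% in embryonic libraries, where culture 2 alone was high, and 8.9% to 18.2% in adult libraries. Summed over all ligands, the level was 61.6 ± 12.3 CPM per kb (SD, n = 3) in embryonic PBS and 33.1 ± 8.81 in adult PBS libraries. Summed over the Frizzled receptors it was 133 ± 54.8 and 126 ± 9.58 CPM per kb, ranges that overlap.

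The first comparison asked which of these genes responded to LPS in each stage. In the model without the culture term, no member was called at an adjusted p under 0.05 (edgeR quasi-likelihood test with Benjamini-Hochberg adjustment over 13038 genes), against 2.75% of all genes in embryonic and 0.606% in adult stroma. At an unadjusted p under 0.05, 4 members passed in embryonic stroma (Fzd2, Fzd4, Fzd5 and Wnt10b) against 10.8% of all genes, and 5 in adult stroma (Fzd2, Fzd5, Fzd8, Wnt9a and Wnt10b) against 5.58% of all genes. DESeq2 called 0 members in embryonic and 1, Fzd8, in adult stroma. Both libraries of a culture deviated together, so the same test was also made with the culture as a replicate block. It called 5 of 27 members in each stage, where the background was 12.5% of all genes in embryonic and 6.2% in adult stroma. Those calls and their p-values below come from the edgeR test with this block.

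Wnt10b, a ligand that activates beta-catenin signalling, was the tested member with the largest rise in both stages. In embryonic stroma its level was 1.42, 2.59 and 1.37 CPM in the PBS libraries of cultures 1, 2 and 3 and 5.29, 6.04 and 3.997 CPM with LPS. In adult stroma it was 1.501, 0.481 and 2.04 CPM with PBS and 6.70, 1.69 and 6.56 CPM with LPS. The LPS library was the higher one in all 6 pairs. The groups did not overlap in embryonic stroma, while adult culture 2 with LPS lay below adult culture 3 with PBS. Wnt10b rose by a log2 fold change of 1.54 (SE 0.195, adjusted p = 0.00182) in embryonic and 1.89 (SE 0.212, adjusted p = 0.00193) in adult stroma, and the call was kept with any culture left out. Without the block, the adjusted p was 0.323 and 0.390 in the same edgeR test.

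Its chromosomal neighbour Wnt1, the founding member of the family, was near the detection limit. Wnt1 lies at chr15:98789857-98793830 and Wnt10b at chr15:98770712-98778206 (RefSeq, GRCm38.p6), with 11650 bases and no other listed gene between them. Wnt1 had 1, 1 and 1 counts in the embryonic PBS libraries and 5, 9 and 6 with LPS. Its adult counts were 4, 0 and 2 counts with PBS and 46, 12 and 11 with LPS. Every LPS library of a stage exceeded every PBS library, though 46 of the 69 adult LPS counts came from culture 1. The ratio of the summed counts, scaled to library size, was 7.96 in embryonic (exact 95% interval 2.36 to 41.9, counting error only) and 10.3 in adult stroma (4.50 to 29.0). Wnt1 did not pass the filter on low counts. In a fit without that filter, edgeR with the block gave an adjusted p of 0.0421 in embryonic and 0.00890 in adult stroma, and 0.237 and 0.183 without the block.

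**Figure D2:**
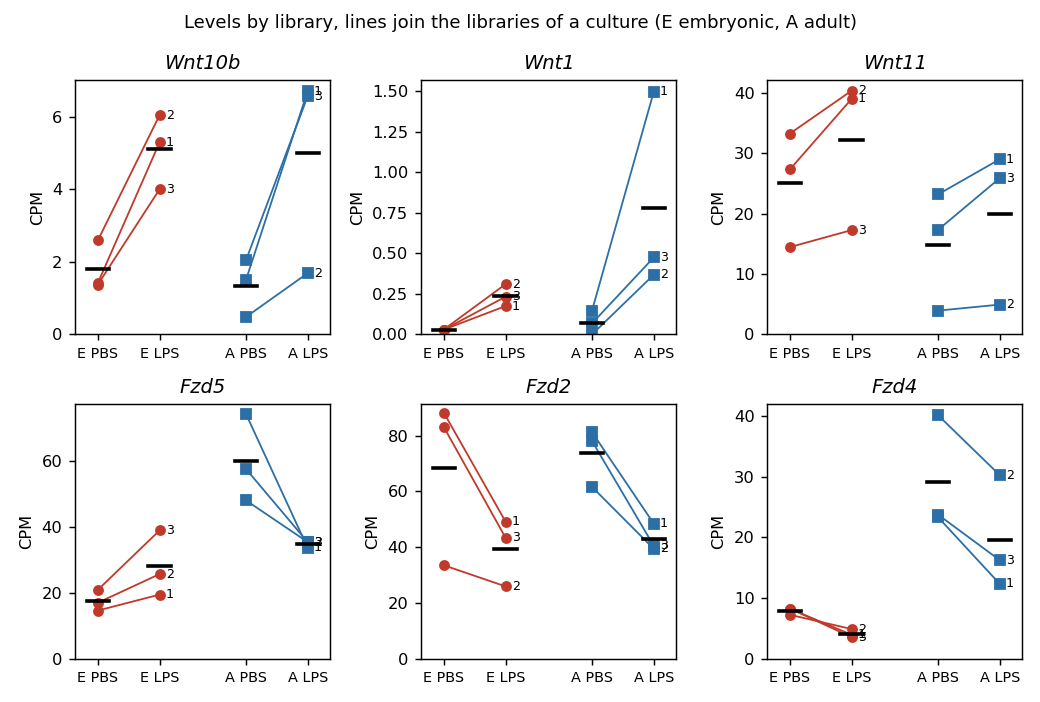
CPM (y axis, linear, from 0) of 6 genes in each library, with lines joining the PBS and LPS library of a culture (numbers), embryonic in red circles and adult in blue squares, and a black bar at the mean of 3. Wnt10b and Wnt1 were higher with LPS in all 6 cultures, Fzd2 and Fzd4 were lower in all 6, and Fzd5 went up in the 3 embryonic and down in the 3 adult cultures.

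Sequences before the start of these 2 ligand genes, and of 2 Frizzled genes whose LPS changes are described below, were taken from the RefSeq promoter table of GRCm38.p6 and are shown because the genes moved with LPS in each stage. Each runs 5' to 3' on the gene's own strand and ends at the annotated start of the gene, and capitals mark an NF-kB consensus match:
Wnt10b (chr15:98778207-98778400, minus strand): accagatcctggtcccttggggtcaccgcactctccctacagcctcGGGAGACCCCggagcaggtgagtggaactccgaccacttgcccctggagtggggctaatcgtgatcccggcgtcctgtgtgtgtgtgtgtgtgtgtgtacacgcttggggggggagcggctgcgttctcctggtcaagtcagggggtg
Wnt1 (chr15:98789607-98789856, plus strand): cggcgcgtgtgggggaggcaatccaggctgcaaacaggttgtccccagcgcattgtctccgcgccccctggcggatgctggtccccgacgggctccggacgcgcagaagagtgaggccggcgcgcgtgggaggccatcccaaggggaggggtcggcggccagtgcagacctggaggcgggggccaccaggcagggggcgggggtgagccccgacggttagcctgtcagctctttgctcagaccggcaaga
Fzd5 (chr1:64737751-64738000, minus strand): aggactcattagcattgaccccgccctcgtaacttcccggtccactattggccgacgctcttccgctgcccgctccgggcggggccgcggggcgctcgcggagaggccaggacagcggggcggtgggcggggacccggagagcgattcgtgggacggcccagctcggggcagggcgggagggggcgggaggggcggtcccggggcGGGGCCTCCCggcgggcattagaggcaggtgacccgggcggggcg
Fzd4 (chr7:89404116-89404365, plus strand): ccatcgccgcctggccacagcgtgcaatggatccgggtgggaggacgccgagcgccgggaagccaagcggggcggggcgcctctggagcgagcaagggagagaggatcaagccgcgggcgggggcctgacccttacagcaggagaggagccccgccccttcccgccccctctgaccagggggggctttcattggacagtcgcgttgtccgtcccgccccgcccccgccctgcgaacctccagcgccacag

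The 250 bases before each start were searched on both strands for the consensus of NF-kB, the factor best known for the LPS response, and for AP-1 (TGANTCA), ISRE and TCF/LEF (ATCAAAG). The table held 32 promoters of 29 of the 43 listed symbols. An NF-kB match stood in 3 of these 32 and in 7.25% of all 32851 promoters of the table. Wnt10b had 2 matches, GGGAGACCCC at 204 to 195 bases before the start of the promoter table and GGGATGCCCC at 40 to 31 bases, the latter inside a longer gene model and so beyond the stretch printed. Fzd5 had GGGGCCTCCC at 45 to 36 bases, and the third was Wnt16. The matches of Wnt10b and Fzd5 read as the consensus on both strands at the same place, and that of Wnt16 on the opposite strand only. The AP-1 letters were in 6.75% of all promoters and in 1 of the members (Wnt5b), those of TCF/LEF in 3.21% and in 2 (Wnt5b and Wnt11), and those of ISRE in 2.98% and in 0 members. Wnt1 and Fzd4 held none of the 4. A match describes the letters only.

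Wnt11, a ligand mostly tied to cell movement without beta-catenin, showed a smaller difference. Its level was 27.3, 33.2 and 14.46 CPM in embryonic PBS and 39.0, 40.3 and 17.3 CPM in embryonic LPS libraries. Adult levels were 23.2, 3.94 and 17.3 CPM with PBS and 29.0, 4.94 and 25.9 CPM with LPS. All 6 pairs were higher with LPS, but the groups overlapped in both stages because cultures differed more than treatments. The log2 fold change was 0.35 (SE 0.0944, adjusted p = 0.0489 in the edgeR test with block) in embryonic stroma, a call lost when any 1 culture was left out, and 0.42 (SE 0.101, adjusted p = 0.0527) in adult stroma.

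The other ligands passed in neither stage. Wnt9a, the second ligand by level, was lower with LPS in all 6 pairs. It went from 55.1, 56.0 and 53.9 CPM to 37.2, 46.5 and 17.5 CPM in embryonic and from 33.3, 16.9 and 31.5 CPM to 19.0, 11.3 and 8.77 CPM in adult stroma. The pairs were far from alike, with culture 3 showing the largest difference in each stage, and the adjusted p was 0.121 in embryonic and 0.0956 in adult stroma (edgeR with block). Wnt5a had an LPS difference of -0.04 (SE 0.102) on the log2 scale in embryonic and -0.27 (SE 0.104, adjusted p = 0.222, edgeR with block) in adult stroma. Wnt2b stood at 3.16, 1.22 and 2.09 CPM with PBS and 3.89, 2.42 and 1.94 CPM with LPS in embryonic libraries, and at 2.64, 1.35 and 4.22 CPM and 4.002, 1.17 and 3.97 CPM in adult stroma, with pairs that went both ways.

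Several Frizzled receptors were lower with LPS. The LPS library was below the PBS library in all 3 pairs for 5 of the 8 tested receptors in embryonic stroma, where 19.1% of all genes showed this, and for 7 of 8 in adult stroma, where 25.1% of all genes did. Over all 27 members these counts were 7 and 16. The median log2 difference of the 8 was -0.31 in embryonic and -0.59 in adult stroma, against 0.00 and -0.01 over all tested genes. With RLE size factors these counts of receptors were 5 and 7, against 21.0% and 27.2% of all genes, and with library totals alone 6 and 7, against 34.4% and 33.3%, a scaling that shifted the median of all genes by -0.13 in embryonic and -0.05 in adult stroma. By the test with block, 2 of 8 fell and 1 rose in embryonic stroma, and 4 of 8 fell in adult stroma. Over all genes, 3.12% were called lower and 9.43% higher in embryonic stroma, and 1.51% and 4.69% in adult stroma.

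Fzd2 and Fzd4 fell in both stages. Fzd2, a receptor that can bind Wnt5a, went from 88.2, 33.5 and 83.0 CPM to 49.1, 25.9 and 43.4 CPM in embryonic and from 81.2, 61.6 and 78.0 CPM to 48.5, 39.4 and 40.5 CPM in adult stroma. The adult groups did not overlap, whereas embryonic culture 2 was low with either treatment. The log2 fold change was -0.72 (SE 0.117, adjusted p = 0.00615, edgeR with block) in embryonic and -0.78 (SE 0.116, adjusted p = 0.00746) in adult stroma. The adult call was lost without adult culture 1 (adjusted p = 0.0679) and without adult culture 3 (adjusted p = 0.0681).

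Fzd4, which is also the receptor of the vascular ligand norrin, went from 8.25, 7.25 and 8.27 CPM to 3.96, 4.90 and 3.57 CPM in embryonic stroma. Adult libraries went from 23.3, 40.1 and 23.7 CPM to 12.3, 30.2 and 16.2 CPM. The embryonic groups did not overlap, and the adult ones did because culture 2 was high with either treatment. The fall was -0.94 (SE 0.161, adjusted p = 0.00797, edgeR with block) in embryonic and -0.62 (SE 0.145, adjusted p = 0.0466) in adult stroma. The adult call was kept in only 2 of the 6 fits that left out a culture, those without embryonic culture 2 or 3, and the largest adjusted p was 0.310, without adult culture 1.

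Fzd8 fell in adult stroma, from 38.9, 30.1 and 40.7 CPM to 19.5, 20.1 and 24.9 CPM, with no overlap. Its log2 fold change was -0.76 (SE 0.103, adjusted p = 0.00444, edgeR with block), and the call was lost without adult culture 3 (adjusted p = 0.0579). In embryonic stroma Fzd8 stood at 17.4, 13.9 and 17.3 CPM with PBS and 16.95, 11.6 and 15.8 CPM with LPS, and the adjusted p was 0.453. The difference between the stages in this LPS change was 0.62 (SE 0.147, embryonic minus adult, adjusted p = 0.168, edgeR with block). Fzd7, the most abundant receptor, stood at 372, 154 and 253 CPM with PBS and 364, 145 and 296 CPM with LPS in embryonic libraries. Its adult groups did not overlap, with all 3 PBS libraries (262, 203 and 196 CPM) above the LPS libraries (142, 175 and 142 CPM), with a log2 difference of -0.52 (SE 0.124, adjusted p = 0.0504, edgeR with block). Fzd6 was lower with LPS in all 6 pairs and missed the threshold in both stages, with an adjusted p of 0.0517 in embryonic and 0.0894 in adult stroma (edgeR with block).

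Fzd5, a receptor used in beta-catenin signalling, was the only member whose LPS change differed between the stages by test. In embryonic stroma it went up, from 14.7, 17.03 and 20.9 CPM to 19.5, 25.7 and 39.0 CPM. In adult stroma it went down, from 74.4, 48.1 and 57.7 CPM to 33.7, 35.5 and 35.5 CPM. The LPS libraries of the stages thus lay much closer to each other than the PBS libraries did. The log2 fold change was 0.64 (SE 0.145, adjusted p = 0.0265, edgeR with block) in embryonic and -0.76 (SE 0.142, adjusted p = 0.0202) in adult stroma. The difference of these changes was 1.40 (SE 0.204, adjusted p = 0.0252, edgeR with block), a test that called 1 of 27 members and 0.844% of all genes, 0.798% with the higher change in embryonic stroma and 0.046% with the lower. Without the block the difference was 1.46 (SE 0.350) with an adjusted p of 1.00 in edgeR's test, which called 0 genes, and 2 members (Fzd5 and Fzd8) and 2.25% of all genes had an unadjusted p under 0.05. DESeq2 called 0 members.

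The Fzd5 call between stages was lost without adult culture 1 (1.21, adjusted p = 0.0714, edgeR with block) and without adult culture 3 (1.41, adjusted p = 0.156), and was kept without any of the other 4 cultures. The call of the rise in embryonic stroma was lost without embryonic culture 2 (adjusted p = 0.0563), embryonic culture 3 (0.131) or adult culture 3 (0.0730), and that of the fall in adult stroma without adult culture 1 (0.131) or 3 (0.136), all by edgeR with block. Leaving out a culture gave an LPS change in embryonic stroma of 0.48 to 0.75 and in adult stroma of -0.57 to -0.93. The highest embryonic LPS value was in culture 3, which also had the highest summed macrophage markers, 1965 CPM with PBS and 1325 CPM with LPS, against 115 to 655 CPM in the other embryonic libraries. In embryonic culture 1, with 151 and 115 CPM of macrophage markers, Fzd5 was 14.7 and 19.5 CPM. The part of these cells in the result was not tested.

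**Figure D3:**
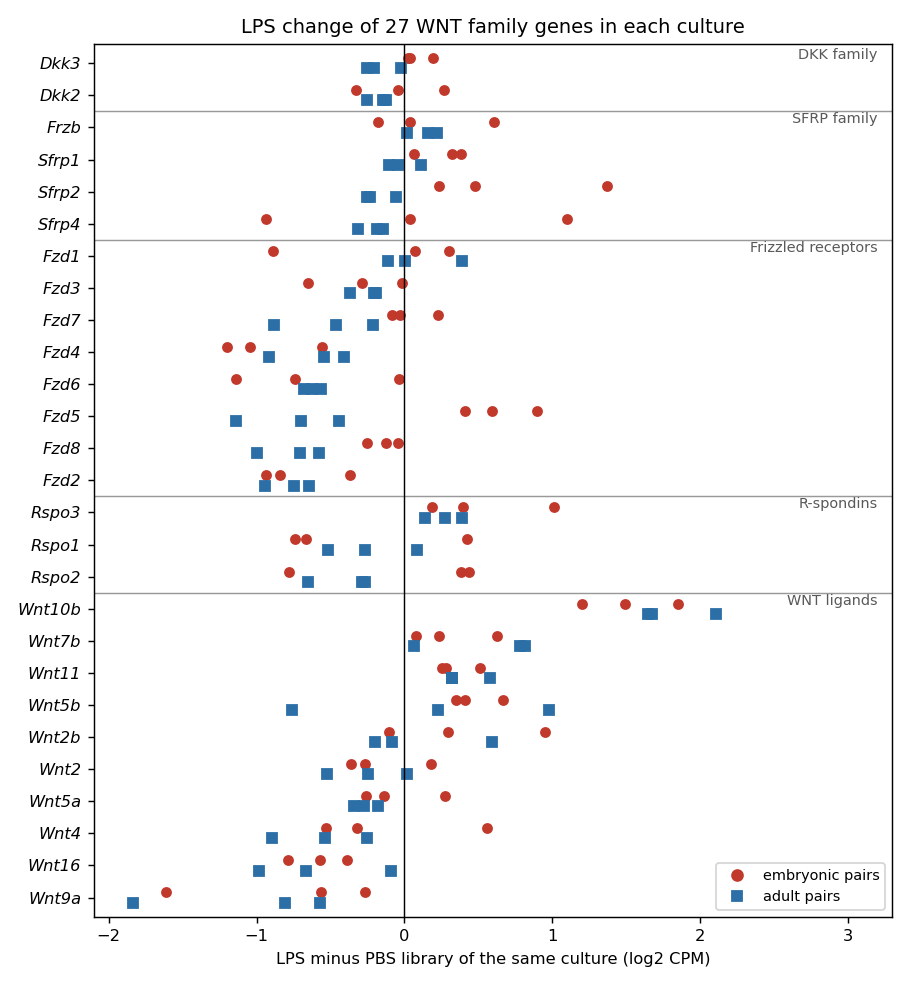
Log2 CPM difference between the LPS and PBS library of each culture (x axis) for the 27 tested members, grouped by role, with embryonic pairs as red circles and adult pairs as blue squares. Wnt10b lies to the right of 0, all pairs of Fzd2, Fzd3, Fzd4, Fzd6 and Fzd8 lie to the left in both stages, and Fzd5 is split by stage.

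Among R-spondins, Rspo3 was higher with LPS in all 6 pairs, by 0.14 to 1.01 on the log2 scale. A rise in all 3 pairs was seen in 9 of 27 members and 23% of all genes in embryonic stroma, and in 5 members and 24% of all genes in adult stroma. Its embryonic levels were 50.6, 16.2 and 74.0 CPM with PBS and 57.4, 32.7 and 97.2 CPM with LPS, and its adult levels 45.6, 40.2 and 27.9 CPM and 50.2, 52.7 and 33.6 CPM. The groups overlapped, and the adjusted p was 0.0553 in embryonic and 0.414 in adult stroma (edgeR with block). No R-spondin, SFRP or DKK gene was called with LPS in either stage. Dkk3 and Sfrp2 were higher with LPS in the 3 embryonic pairs and lower in the 3 adult pairs. Fzd5 shared this pattern, which 2.68% of all genes showed. Tests of the difference between stages gave an adjusted p of 0.528 for Dkk3 and 0.518 for Sfrp2 (edgeR with block). The embryonic rises of Dkk3 were 0.04, 0.02 and 0.19 on the log2 scale, and embryonic Sfrp2 had at most 12 counts in cultures 1 and 3.

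The second comparison was of embryonic with adult stroma. In PBS libraries 4 of 27 members were called, against 4.08% of all genes (edgeR without block). Wnt5a was higher in embryonic stroma, where 1.51% of all genes were, and Fzd4, Fzd5 and Fzd8 were lower, where 2.57% of all genes were. In LPS libraries 2 members were called, against 5.31% of all genes. They were Wnt5a, higher (3.04% of all genes), and Fzd4, lower (2.27% of all genes). The PBS and LPS libraries come from the same cultures, so these are not independent of each other. The spread was estimated over all 12 libraries, with both libraries of a culture counted as independent. With a random culture block, limma voom called 5 members (423 of all genes) in PBS and 2 (440) in LPS libraries. With the 6 libraries of a treatment alone, edgeR called 3 members (173 of all genes) in PBS and 0 (70) in LPS libraries.

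Wnt5a (chr14:28504543-28527448) stood at 324, 131 and 204 CPM in embryonic and 91.8, 88.7 and 84.1 CPM in adult PBS libraries, and at 270, 158 and 185 CPM and 72.3, 73.4 and 74.2 CPM with LPS. It was the only member for which all 6 embryonic libraries exceeded all 6 adult ones, as 5% of all genes did. The adult libraries were close together and the embryonic ones spread, with culture 1 high and culture 2 low. The log2 fold change was 1.31 (SE 0.290, adjusted p = 0.0361) in PBS and 1.48 (SE 0.292, adjusted p = 0.0226) in LPS libraries by edgeR. The PBS call was kept in 3 of the 12 fits that left out 1 library and in 2 of the 6 that left out a culture, those without embryonic culture 1 or 2, and its adjusted p reached 0.227 without adult culture 3. The LPS call was kept in 8 of 12 and 2 of 6 such fits, with an adjusted p of up to 0.158, also without adult culture 3.

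The 3 members called lower in embryonic stroma in PBS libraries were all Frizzled receptors. All 6 embryonic libraries lay below all 6 adult ones for Fzd4 and Fzd8, as also for Frzb and Sfrp2, against 4.84% of all genes. For Fzd4 (chr7:89404366-89410110) the log2 fold change was -1.87 (SE 0.334, adjusted p = 0.0162, edgeR) in PBS and -2.24 (SE 0.341, adjusted p = 0.00872) in LPS libraries. Its adult libraries were highest in culture 2, where endothelial markers summed to 1821 and 1753 CPM. In adult culture 1, where these markers summed to 21.3 and 16.2 CPM, Fzd4 was 23.3 and 12.3 CPM, and its highest embryonic value was 8.27 CPM. The part of endothelial cells in these levels was not tested. For Fzd5 (chr1:64730558-64737750) the log2 fold change was -1.78 (SE 0.253, adjusted p = 0.00570, edgeR) in PBS and -0.31 (SE 0.246, adjusted p = 0.518) in LPS libraries. Fzd8 differed by -1.17 (SE 0.187, adjusted p = 0.0102, edgeR) in PBS and by -0.54 (SE 0.185, adjusted p = 0.122) in LPS libraries.

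The calls between stages depended on which cultures were included. Without embryonic culture 2, 11 members were called in PBS libraries (9.75% of all genes) and 9 in LPS libraries (10.4%). Added to the 4 in PBS were Dkk2, Dkk3 and Fzd1, higher in embryonic stroma, and Rspo1, Sfrp2, Sfrp4 and Wnt2, lower. The estimates then were -4.85 for Rspo1, -8.60 for Sfrp2 and -2.91 for Wnt2 on the log2 scale, the Sfrp2 estimate against embryonic libraries near the floor of 3 counts. Over the 6 fits that left out a culture, the PBS call was kept in 4 for Fzd4 and in 5 each for Fzd5 and Fzd8, and the LPS call of Fzd4 in 5. Without adult culture 3, 0 members were called in PBS (0.634% of all genes) or LPS libraries (0.267%) by edgeR. The values without embryonic culture 2 were computed after it had been seen to stand apart.

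**Figure D4:**
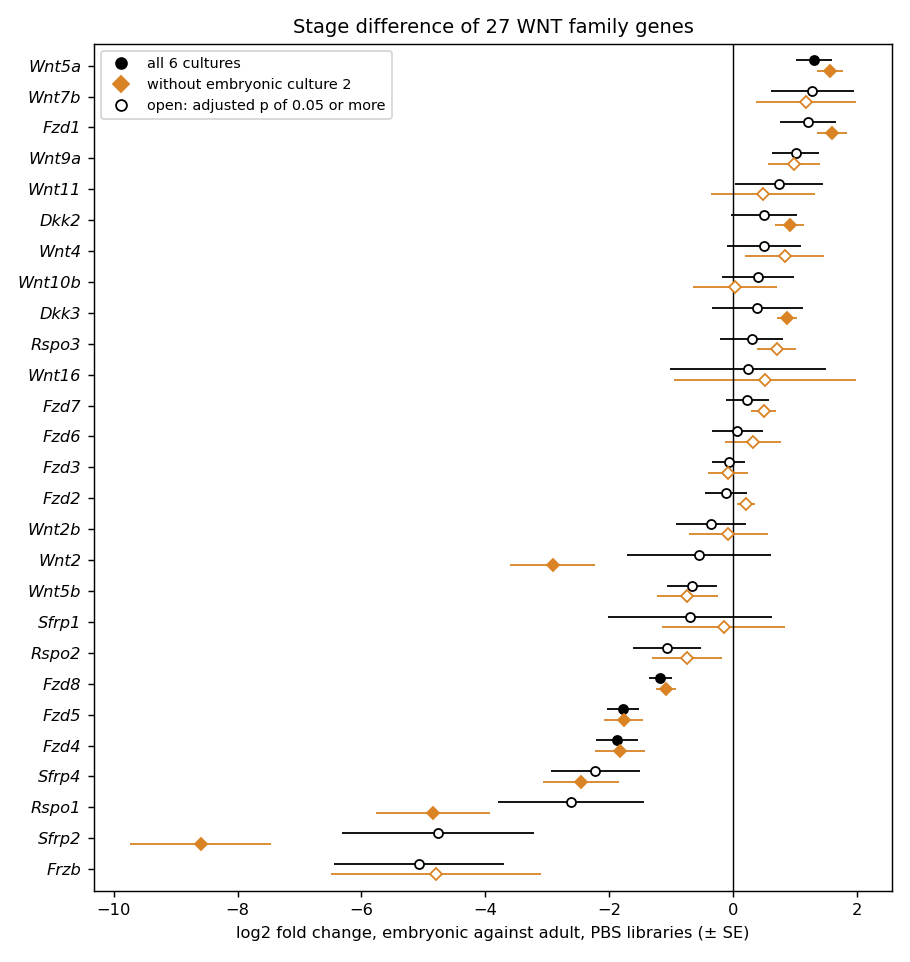
Log2 fold change of embryonic against adult stroma in PBS libraries, with standard error (x axis), for the 27 tested members, from the 6 PBS cultures (black) and without embryonic culture 2 (orange), filled where the adjusted p was under 0.05. Wnt5a, Fzd4, Fzd5 and Fzd8 are filled in both, while Rspo1, Sfrp2 and Wnt2 move to the left and pass only without that culture.

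Several antagonists, R-spondins and ligands varied widely between cultures of a stage. For 23 of 27 members in embryonic and 20 of 27 in adult stroma, the range of the culture means exceeded the mean LPS change, close to the shares of all genes (83.6% and 81.0%). The size of that range was larger for members, with a median of 1.30 and 1.14 on the log2 scale against 0.50 and 0.34 over all genes. In embryonic culture 2, both libraries lay at least 4-fold above or below the 4 other embryonic libraries for 5 of 27 members, against 1.22% of all genes. In the other 2 embryonic cultures this held for 0 members (0.115% of all genes in culture 1 and 0.107% in culture 3). In adult stroma it held for Frzb in culture 2 (0.307% of all genes) and for 0 members in culture 1 (0.383%) or 3 (0.00767%).

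Sfrp1 (chr8:23411383-23449632), an antagonist that binds WNT ligands, stood at 83.7, 3.56 and 109 CPM in embryonic PBS and 87.7, 4.66 and 136 CPM in embryonic LPS libraries, so that culture 2 was far below the others with either treatment. In adult stroma it stood at 27.1, 231 and 60.1 CPM with PBS and 29.3, 224 and 55.9 CPM with LPS, and here culture 2 was the highest. The stages overlapped, and the difference in PBS libraries was -0.70 (SE 1.32, adjusted p = 0.847, edgeR), a value that turned to 0.59 without the PBS library of adult culture 2. Dkk3, a divergent DKK family member, was likewise low in embryonic culture 2, at 20.4 and 20.7 CPM, against 142 to 166 CPM in the other embryonic and 60.5 to 89.3 CPM in adult libraries. Summed fibroblast markers were also lower in embryonic culture 2, at 12475 and 11387 CPM against 21416 to 27014 CPM in the other embryonic libraries. The sum was likewise lower in adult culture 2, at 12096 and 11435 CPM against 20061 to 20884 CPM in the other adult libraries. Not every marker of the list followed the sum. In embryonic culture 2, Pdgfra was not lowest, and Vim with PBS was the highest embryonic value at 3631 CPM. In adult culture 2, Pdgfra was highest, at 78.4 and 121 CPM against 28.5 to 55.1 CPM in the other adult libraries. Thy1 was also higher there than in adult culture 1. In that adult culture Sfrp1 was highest, and Dkk3 stood at 89.3 and 77.3 CPM. The part of fibroblasts in these levels was not tested.

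Rspo1, Sfrp2 and Wnt2 showed the opposite order. Rspo1 was 15.0 and 8.97 CPM in embryonic culture 2, 0.735 to 1.75 CPM in the other embryonic libraries and 11.4 to 62.2 CPM in adult libraries. Sfrp2 was 5.06 and 5.97 CPM in that culture, 0.119 to 0.420 CPM in the other embryonic libraries and 19.2 to 87.3 CPM in adult libraries. Wnt2, a ligand of lung and gut mesenchyme, was 19.9 and 15.5 CPM there, 1.28 to 1.61 CPM in the other embryonic libraries and 3.93 to 15.3 CPM in adult ones. For these 3 genes both libraries of embryonic culture 2 lay above all other embryonic libraries. Mesothelial markers summed to 751 and 662 CPM in that culture against 143 to 156 CPM in the other embryonic libraries, and to 432 to 1427 CPM in adult libraries, and their part in these levels was not tested. In adult stroma, where summed mesothelial markers were highest in culture 1, so were Rspo1 and Wnt2, whereas Sfrp2 was highest in culture 2. Of that marker list, Lrrn4 and Krt19 were highest in culture 2 in the adult PBS libraries, and the other markers in culture 1.

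Frzb, an SFRP relative first described in cartilage, was 0.149 to 1.37 CPM in embryonic and 3.11 to 34.5 CPM in adult libraries. Both libraries of adult culture 2 stood at 34.0 and 34.5 CPM, and the other adult libraries at 3.11 to 6.52 CPM. The difference in PBS libraries was -5.07 (SE 1.37, adjusted p = 0.0669, edgeR). Summed endothelial markers were also highest in adult culture 2, at 1821 and 1753 CPM against 16.2 to 394 CPM in the other adult libraries. Emcn made up most of that sum, at 1039 and 985 CPM. Kdr of the same list was not highest there, while the other markers of the list were. The part of endothelial cells in the Frzb level was not tested. Within the R-spondins, Rspo3 made up 87.3% to 92.4% of the summed level per kb in embryonic cultures 1 and 3, while in embryonic culture 2 Rspo1 made up 57.9% with PBS and 29.7% with LPS. In adult libraries Rspo1 made up 23.4% to 65.5% and Rspo3 30.2% to 64.1%.

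**Figure D5:**
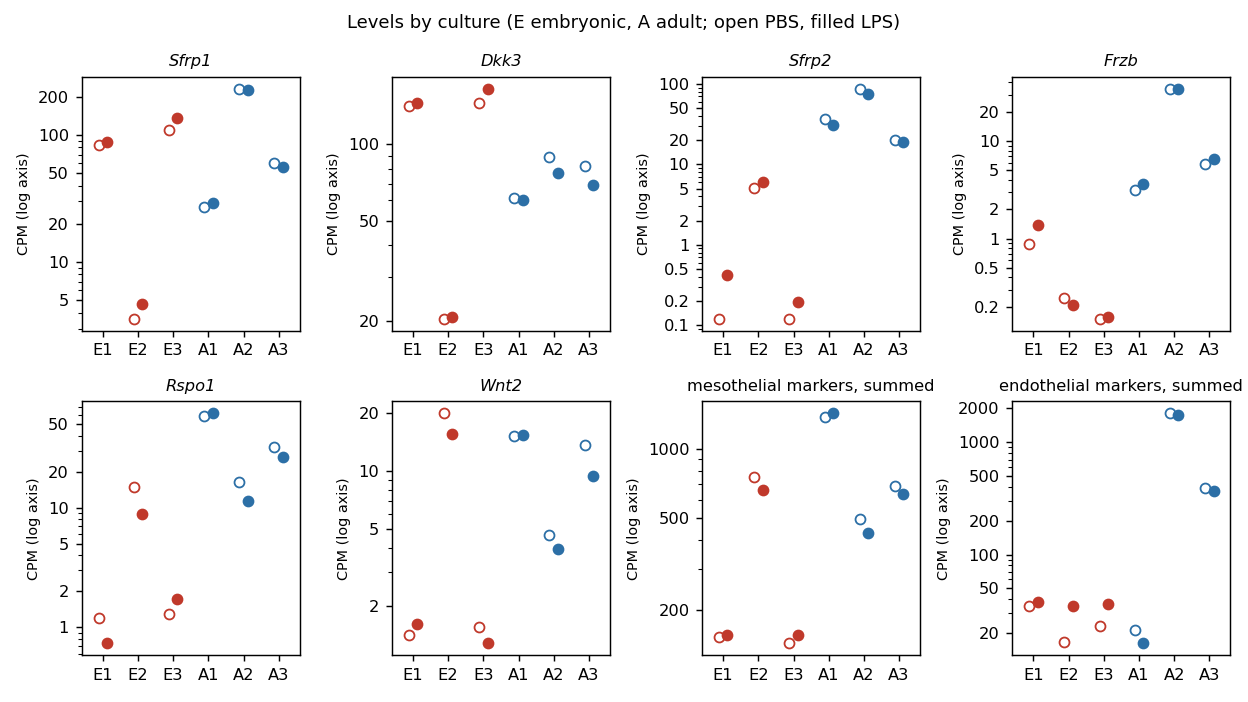
CPM on log axes of 6 members and of the summed mesothelial and endothelial markers in each culture (E embryonic, A adult), with open points for PBS and filled points for LPS libraries. The points of a culture mostly lie close together, with Sfrp2 in embryonic culture 1 (0.120 CPM with PBS and 0.420 CPM with LPS) as an exception. Embryonic culture 2 is low for Sfrp1 and Dkk3 and high for Sfrp2, Rspo1, Wnt2 and mesothelial markers, and adult culture 2 is high for Frzb and endothelial markers.

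DESeq2, with all cultures, called 7 members between stages in PBS libraries (Frzb, Sfrp2 and Sfrp4 beside the 4 that edgeR called) and 6 in LPS libraries (Frzb, Rspo1, Sfrp2 and Wnt9a beside Wnt5a and Fzd4). The remaining tested members are given by their range. Fzd6 ranged from 52.8 to 190 CPM over the 12 libraries, Fzd1 from 31.2 to 141 CPM and Fzd3 from 5.67 to 13.5 CPM. Dkk2, which antagonises the LRP co-receptors, ranged from 27.4 to 140 CPM, with its 2 lowest values in embryonic culture 2. Rspo2 ranged from 2.41 to 17.5 CPM and Sfrp4 from 0.140 to 1.76 CPM. The ligands Wnt4, Wnt5b, Wnt7b and Wnt16 stayed at or below 6.23 CPM in every library.

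The 14 members that were not tested stayed low. They were Wnt1, Wnt3, Wnt6, Wnt7a, Wnt8a, Wnt8b, Wnt9b, Wnt10a, Fzd9, Fzd10, Dkk1, Sfrp5, Rspo4 and Wif1. The highest of them was the co-receptor antagonist Dkk1, with 73 counts (3.51 CPM) in the PBS and 146 counts (4.48 CPM) in the LPS library of adult culture 2, and at most 17 counts in any other library. Wnt10a, a close relative of Wnt10b, had 3, 0 and 2 counts in adult PBS and 22, 9 and 4 in adult LPS libraries, a ratio of 6.27 (exact 95% interval 2.45 to 20.5). In embryonic stroma it had 14, 32 and 4 counts with PBS and 15, 41 and 5 with LPS, a ratio of 1.46 (0.986 to 2.16). In the fit without the filter Wnt10a had an adjusted p of 0.0560 in adult and 0.672 in embryonic stroma (edgeR with block). Wnt8a, Wnt8b, Wnt9b, Rspo4 and Sfrp5 had no more than 2 counts in any library, and Wif1, a secreted WNT inhibitor, had 0 to 10.

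Of 49 other listed genes of WNT signalling (co-receptors, secretion and turnover genes, other secreted modulators, relay genes and targets), 35 were tested. With LPS and the block, 1 rose and 2 fell in embryonic stroma, where 12.5% of all genes were called (9.43% higher and 3.12% lower). In adult stroma 1 rose and 0 fell, where 6.2% of all genes were called (4.69% higher and 1.51% lower). These counts are too small to be set apart from the shares of all genes. Without the block 0 passed in either stage by edgeR. The median log2 difference of the 35 was 0.01 in embryonic and -0.07 in adult stroma in both fits. In embryonic stroma Igfbp4, which binds IGF and can inhibit WNT receptors, rose by 0.85 (SE 0.179, adjusted p = 0.0189, edgeR with block), the co-receptor Lrp6 fell by 0.47 (SE 0.125, adjusted p = 0.0458), and the relay gene Dvl2 fell by 0.63 (SE 0.125, adjusted p = 0.0147). In adult stroma Myc, a target of many pathways, rose by 1.13 (SE 0.240, adjusted p = 0.0338, edgeR with block). Between the stages in PBS libraries, 1 of the 35 was lower in embryonic stroma (Igfbp4, -2.85, SE 0.579, adjusted p = 0.0276, edgeR) and 0 were higher, where 4.08% of all genes were called. Axin2, the target most used as a readout of beta-catenin signalling, stood at 0.280 to 0.975 CPM in embryonic and 1.33 to 5.02 CPM in adult libraries. Such a place of all embryonic below all adult libraries was seen in 4.84% of all genes. Axin2 did not pass in PBS (adjusted p = 0.0897, edgeR) or LPS libraries (adjusted p = 0.0542). Among the other tested targets, embryonic PBS means were higher for Myc, Bambi and Wisp1. They were lower for Nkd1, Nkd2, Apcdd1, Tnfrsf19 and Ccnd1, and none was called between stages.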

How the data were processed

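Strand-specific poly(A) RNA-seq was made from 12 libraries. The deposited values were raw read counts per gene symbol, without normalisation, which the authors made by trimming reads, mapping them to GRCm38.p6 with STAR and counting unique reads. Counts on the expected strand were used, since the opposite strand held 1.14% to 1.98% of counts. Groups came from the labels.

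Tests used edgeR 4.0.16 in R 4.3.3 (TMM, quasi-likelihood test, all 12 libraries in 1 model of 4 groups). Genes with a CPM above 0.5 in all libraries of at least 1 group were tested (13038), and called at a Benjamini-Hochberg adjusted p under 0.05. SE is the absolute log2 fold change divided by the square root of F. Paired differences used log2 CPM with a prior count of 2. A count of 3 per library was taken as the floor (0.0896 to 0.144 CPM). Intervals and floors cover counting error only. limma 3.58.1, DESeq2 1.42.0 and Python 3.11.15 with matplotlib 3.10.9 served alternatives and figures.

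LPS and PBS libraries of a stage and number deviated together (correlations 0.61 to 0.85 over genes), which gave the pairing. It is not stated in the sources used here. Libraries of the same stage and number may therefore share a source, and p-values measure only the spread between these libraries. Exon lengths came from GENCODE vM21, and positions and promoters from RefSeq, both on GRCm38.p6. Scripts were tested on simulated data.

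The members and lists were chosen with earlier results of these data known. Values by library are given for Wnt5a, Wnt2b, Rspo3 and Sfrp1, for members called with LPS or between stages, and for the highest member of each role. Sfrp2, Frzb, Rspo1, Wnt2, Wnt9a, Wnt1, Wnt10a and Dkk1 were added after their values were seen, as was Axin2 among the other WNT signalling genes. Fits without a culture were chosen after seeing the data.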

Additional observations from a re-analysis of the deposited data

Results flagged for a closer look

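For 3 genes the LPS change went up in all 3 embryonic cultures and down in all 3 adult cultures. For Fzd5 the difference was tested, and was 1.40 (SE 0.204, adjusted p = 0.0252) by edgeR with the replicate block. For Dkk3 the mean pair change was 0.246 log2 CPM higher in embryonic than in adult stroma, and for Sfrp2 it was 0.875 higher. Neither difference passed its test (adjusted p = 0.528 and 0.518, edgeR with block). Dkk3 rose by only 0.04, 0.02 and 0.19 in the embryonic pairs. Embryonic Sfrp2 had 4, 166 and 4 counts with PBS and 12, 173 and 5 with LPS, near the floor in cultures 1 and 3. All genes together showed such opposite directions in 2.68% of cases. Groups of 3 libraries are too small for a test of single outlying libraries.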

How the results depend on the processing

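The replicate block within a stage gave 5 members called with LPS in each stage and 1 for the difference between stages, against 0 without it. With the block, RLE size factors and library totals left these counts at 5, 5 and 1, leaving out the filter gave 7, 8 and 1, and counts on either strand gave 5, 7 and 1. With the fold threshold of 4 as well, the block called 0, 0 and 0 members (444, 211 and 73 genes over all), and without the block also 0 (251, 55 and 0 genes). Leaving out a culture gave 3 to 5 calls in embryonic and 1 to 10 in adult stroma and 0 to 1 for the difference, and 0 to 1 with LPS without the block. DESeq2 called 1 member with LPS in adult stroma. Between stages in PBS libraries (4 calls), DESeq2 gave 7, the fold threshold of 4 as well 0, an adjusted p under 0.01 gave 1, a left-out library gave 2 to 6 and a left-out culture 0 to 11. In LPS libraries (2 calls) these settings gave 6, 1, 1, 1 to 3 and 0 to 9. The 6 libraries alone gave 3 calls in PBS and 0 in LPS libraries, and a random culture block (limma voom) gave 5 and 2. Numbers did not pair cultures across stages (correlations -0.306 to -0.002), and a block across them gave 5 calls in PBS and 4 in LPS libraries.

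Over all genes, the calls in the embryonic and adult LPS comparisons went from 358 and 79 to 1636 and 808 with the block, to 684 and 294 with DESeq2, to 119 and 16 at 0.01, and to 4 and 227 with 6 libraries alone. Between stages, 532 (PBS) and 692 (LPS) became 1552 and 1704 with DESeq2, 291 and 385 with the fold threshold, 102 and 96 at 0.01, 173 and 70 with 6 libraries alone, and 891 and 1059 with the block across stages. The difference between stages went from 0 to 110 with the block and 25 with DESeq2.

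In edgeR without the block, a few estimates changed sign when 1 library was left out, and the causes were not tested. With the block and 1 culture left out, the Wnt11 change in adult stroma stayed at 0.31 to 0.47. Without the block and with 1 library left out, the Fzd8 change with LPS in embryonic stroma ran from -0.24 to 0.0149 (without LPS library 2). That of Wnt11 in adult stroma then ran from -0.0222 (without PBS library 2) to 0.90. The stage difference of Sfrp1 ran from -1.28 to 0.587 in PBS libraries (without adult library 2, or 0.581 without its culture), and from -1.15 to 0.843 in LPS libraries (without adult library 2, or 0.841 without its culture), with 0.113 without embryonic LPS library 2 (0.112 without its culture).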
